A study of Mus musculus with 2 samples.

Results

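A set of genes of retinoid handling was followed in the skin of newborn mice: the retinol receptor Stra6, the carriers Crabp1 and Crabp2, the enzymes Dhrs9, Aldh1a2, Aldh1a3 and Cyp26b1, and the nuclear receptors Rara and Rarg. These genes, and the lists used below, were chosen with earlier results of these data known. Their counts beside the shares of all genes are therefore descriptions only. Probes were taken by name, as the array probes outside the controls that carry 1 of these 9 gene symbols. That rule found 10 probes of 39422 on the array, 1 for each gene and 2 for Rara, and 9 genes of the 19391 that had a probe well above background on both arrays. All 10 probes passed that mark on both arrays, so no member was lost to the filter.

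The study compared whole skin of Pla2g4e-/- mice, which lack a cytosolic phospholipase A2 that makes precursors of N-acylethanolamines, with skin of Pla2g4e+/+ mice. Both groups were C57BL/6N newborns at P0, the day of birth, and no other treatment is named in the labels. Each group was 1 array, hybridised with equal amounts of RNA pooled from 5 animals. The spread between animals therefore cannot be seen, no test was possible and no p-value is given. Which part of Pla2g4e the allele removes is not stated in the labels.

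Retinoids reach skin as retinol bound to a plasma carrier. Cells oxidise retinol to retinal with reversible dehydrogenases and then retinal to retinoic acid with retinaldehyde dehydrogenases, and enzymes of the CYP26 family break the acid down. Retinoic acid binds the receptors RAR, which sit on DNA with RXR partners, and in skin it is known for acting on keratinocyte differentiation, the hair follicle and the sebaceous gland.

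The arrays had median signals of 249 and 241 intensity units, and 78.8% and 81.6% of spots were well above background, in wild-type and knockout skin. Pla2g4e itself read 662 in wild-type skin and 320 in knockout skin, a scaled difference of -0.96 log2. A probe outside the deleted part would check nothing about the labels. The wild-type pool held RNA of the Y-linked gene Ddx3y (2893 against 2.36, at least 276-fold lower in knockout skin), and Xist read 796 and 2889. The sex makeup of the pools thus differed along with the genotype, and sex and genotype cannot be told apart in any value given here. Epidermal and dermal markers were present on both arrays, with Krt14, a keratin of the basal layer, at 92691 and 87086, Krt10, of the suprabasal layers, at 232907 and 241231, and the collagen Col1a1 at 111589 and 112938.

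Of the 9 retinoid genes, Aldh1a2 and Dhrs9 were higher by 1.5-fold or more in knockout skin, Stra6 was lower by 1.5-fold or more, and 6 lay within 1.5-fold. Among all 19391 measured genes, 6.74% were higher by 1.5-fold or more and 4.49% lower by 1.5-fold or more. The median of the 9 was 0.15 log2, beside 0.01 for all measured genes. A difference is log2 signal, knockout minus wild type, after each array was scaled to its own 75th percentile. Its error is the scanner software's own estimate for the spots, which covers neither animals nor pools, and in bulk RNA fewer cells of a type and less RNA per cell cannot be told apart. The 3 genes past 1.5-fold were those with the lowest signals among the 9. Probe signals depend on the probe's sequence as well as on the RNA, so they are not set against each other as levels of different genes.

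**Figure D1:**
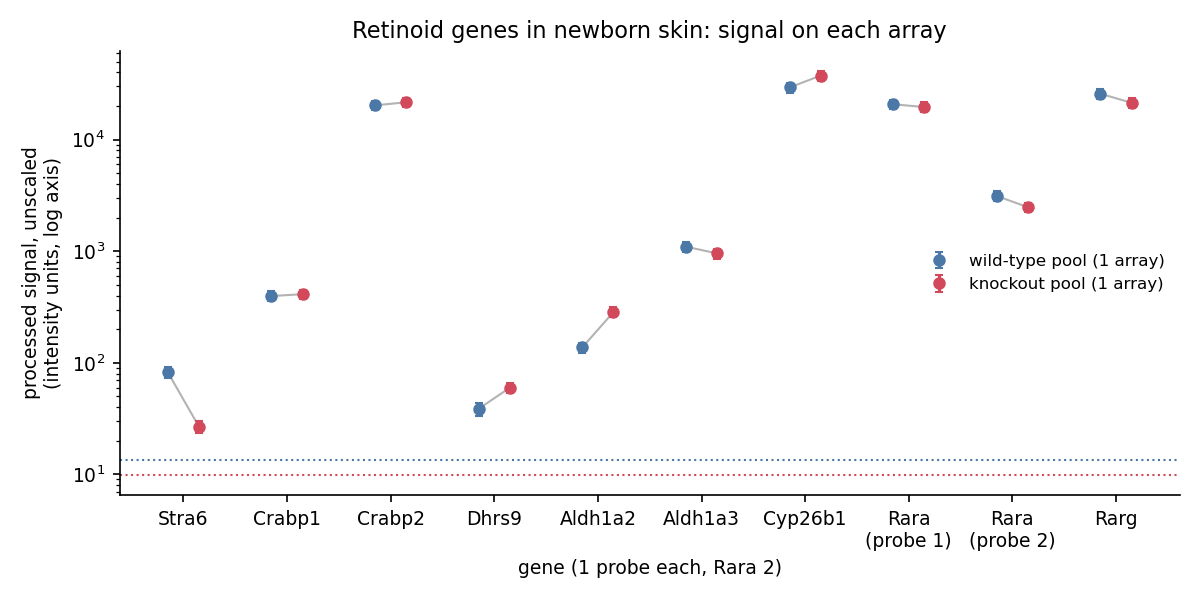
Processed signal of each probe of the 9 retinoid genes, in unscaled intensity units on a log axis, for the wild-type pool (blue) and the knockout pool (red), 1 array each; bars are the scanner error and dotted lines the lowest signal well above background on each array (13.4 and 9.84). Stra6, Dhrs9 and Aldh1a2 lie lowest and differ most between the arrays, while Crabp2, Cyp26b1, Rarg and the brighter Rara probe lie in the upper part of the plot.

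Stra6, the membrane receptor that takes up retinol from its plasma binding protein, showed the largest difference of the 9 genes. It read 82.1 in wild-type skin and 26.8 in knockout skin. The scaled difference was -1.53 log2, the scanner error 0.24, or 34.7% of the wild-type level. Before any correction the spot means were 122 and 65.6 over local backgrounds of 27.0 and 25.0, with a pixel SD of 28.3 over 64 pixels and 12.5 over 61 pixels. The raw spots thus lay in the same order as the corrected signals, both not far above their surroundings. Among all measured genes 0.418% had a difference as low or lower. Of the 1939 genes in the same signal decile, the central 95% ran from -1.07 to 1.32 log2, and Stra6 lay below that range. Normexp background correction starts from the spot means and local backgrounds and adds an offset of 50 units, of the order of this signal. With it the Stra6 difference was -0.52 log2 and no longer reached 1.5-fold.

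The probe that reads Stra6 stands for NM_001162476 and lies at mm9 chromosome 9, 58001701 to 58001760, on the + strand. The first 30 of its 60 bases are shown with those of the probes for Aldh1a2, Dhrs9 and Rara, because the largest differences among the 9 genes, and the only comparison of 2 probes of 1 gene, rest on these oligos. All are in lower case, since no part of a probe was singled out.
Stra6 probe A_55_P1973451: atgccattagttgtcatgaaagaagttagt
Aldh1a2 probe A_52_P58145: aaccagctagctcccttcaacccacagtat
Dhrs9 probe A_55_P2014882: actctggtttctttcacccttctttttgtc
Rara probe A_55_P2095345: tcctgctgggtttccactgagatctactgg
Rara probe A_55_P2095342: cctgtacatatcctgcgtaccaatccccag
Each oligo was printed as 1 spot per array, so these genes have no repeated spots.

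The carriers of retinoic acid within the cell differed little. Crabp1, which binds retinoic acid in the cytosol, read 396 in wild-type skin and 412 in knockout skin. Its difference of 0.15 log2 was smaller than its scanner error of 0.20. Crabp2, which hands retinoic acid to its nuclear receptors, read 20304 and 21635. Its difference was 0.18 log2 with an error of 0.20. Both carriers were thus slightly brighter in knockout skin, by amounts below the scanner software's error estimate. The Crabp1 probe (NM_013496) lies at mm9 chromosome 9, 54616192 to 54616251, and the Crabp2 probe (NM_007759) at chromosome 3, 87757207 to 87757266.

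Of the enzymes that make retinoic acid, Aldh1a2 and Dhrs9 were higher in knockout skin and Aldh1a3 was not. Aldh1a2, a retinaldehyde dehydrogenase that carries out the last step, read 137 in wild-type skin and 285 in knockout skin. The scaled difference was 1.14 log2 with an error of 0.21, a ratio of 2.21-fold. Its raw spot means were 184 and 338 over local backgrounds of 25.5 and 24.0, so that the raw readings lay in the same order. Within its signal decile the central 95% of genes ran from -0.94 to 1.12 log2, and Aldh1a2 lay just above it. Its probe (NM_009022) is at mm9 chromosome 9, 71143931 to 71143990.

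Dhrs9, a short-chain dehydrogenase that can turn retinol into retinal, read 38.7 in wild-type skin and 59.7 in knockout skin. The difference was 0.72 log2 with an error of 0.25, or 1.64-fold. It lay inside the central 95% of its own signal decile, -1.07 to 1.32, where 12.5% of genes were higher by 1.5-fold or more. With normexp background correction it was 0.41 log2, under 1.5-fold. Its probe (NM_175512) is at mm9 chromosome 2, 69241030 to 69241089. Aldh1a3, the retinaldehyde dehydrogenase best known from facial and eye development, read 1098 and 955. Its difference of -0.11 log2 was smaller than its error of 0.20, and its probe (NM_053080) is at chromosome 7, 73535785 to 73535844. The 2 retinaldehyde dehydrogenases among the 9 genes thus lay on opposite sides of 0, Aldh1a2 by 5.53 times its scanner error and Aldh1a3 by 0.54 times.

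**Figure D2:**
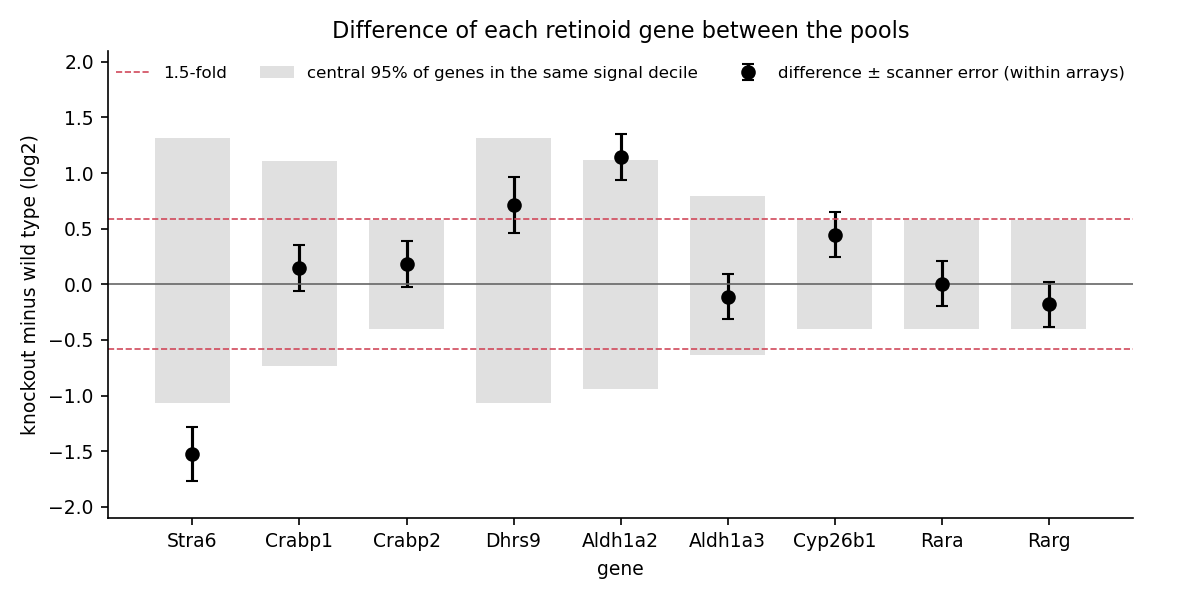
Difference of each retinoid gene between the pools (knockout minus wild type, log2, scaled signals), with the scanner error as bars; grey columns span the central 95% of measured genes in the same signal decile, and dashed lines mark 1.5-fold. Stra6 (-1.53) lies below its grey column and Aldh1a2 (1.14) at the top edge of its own, while the other 7 genes lie inside theirs.

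Cyp26b1, which breaks down retinoic acid, was the brightest of the 9 probes used and read 29356 in wild-type skin and 37518 in knockout skin. The difference was 0.45 log2 with an error of 0.20, or 1.36-fold, short of 1.5-fold. Among genes of its signal decile the central 95% ran from -0.41 to 0.58 log2, and Cyp26b1 lay inside it. Of all measured genes 89.3% had a lower difference or the same. Its probe (NM_175475) lies at mm9 chromosome 6, 84521952 to 84522011.

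The nuclear receptors differed by less than 1.5-fold. Rarg, the retinoic acid receptor most abundant in epidermis, read 25796 in wild-type skin and 21385 in knockout skin. Its difference was -0.18 log2 with an error of 0.20. Rara, the more widely expressed receptor, read 20760 and 19578 with its brighter probe and 3124 and 2479 with the other. The brighter probe gave 0.01 log2 and the other -0.24, each with an error of 0.20, and their mean was -0.12. The sign for Rara depended on the setting and was below 0 with median scaling, quantile normalization, normexp and the deposited value table as well. The Rara probes both stand for NM_001177302 and lie at mm9 chromosome 11, 98835350 to 98835409 and 98836197 to 98836256. The Rarg probe (NM_011244) is at chromosome 15, 102065371 to 102065430.

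The rest of the pathway was followed in lists of other carriers, enzymes, receptors and coregulators. Of 70 genes listed, 61 were measured on both arrays, 7 were higher by 1.5-fold or more in knockout skin, 3 were lower and 51 lay within 1.5-fold. Their median was 0.05 log2. These counts stand beside 6.74% of all measured genes higher and 4.49% lower.

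The enzymes that interconvert retinol, retinal and retinoic acid held 5 of the 7 higher genes, from 22 measured, and 0 lower ones. Over all measured genes the shares were 6.74% and 4.49%. Adh1, an alcohol dehydrogenase that oxidises retinol among other alcohols, read 8780 in wild-type skin and 18987 in knockout skin, a difference of 1.20 log2 with an error of 0.20. Adh7, a related dehydrogenase of epithelia, read 98.6 and 235, a difference of 1.34 log2. Aldh1a1, a retinaldehyde dehydrogenase like Aldh1a2, read 675 and 1301, a difference of 1.04 log2. Its close paralog Aldh1a7 stood at 0.19, and probes for such paralogs can share signal. Adh4 (20.4 and 46.9, 1.29 log2) and Rdh16 (19.1 and 27.3, 0.61 log2) came from dim probes and were 0.55 and 0.26 log2 with normexp. Rdh16 was also under 1.5-fold with median scaling and quantile normalization. Dhrs3, which returns retinal to retinol, read 19786 and 20246, a difference of 0.12 log2. Rdh10, the main retinol dehydrogenase of the embryo, stood at -0.12, and Rdh1 was lowest of the list at -0.38.

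Of 8 measured genes for retinoid storage and for the cleavage of carotenoids, 5 were below 0 and 3 above. By 1.5-fold or more, 3 were lower and 0 higher, beside 4.49% and 6.74% of all measured genes. The list median was -0.45 log2. Rpe65, the retinoid isomerase of the eye, read 36.7 and 14.4 (-1.26 log2). Bco1, which cleaves beta-carotene, read 65.0 and 38.7 (-0.66), and the wax and retinyl ester synthase Awat2 read 154 and 94.7 (-0.61). These 3 lay in the 3 lowest signal deciles, where 7.37% to 8.15% of all genes were lower by 1.5-fold or more. With normexp they were between -0.32 and -0.22 log2, all under 1.5-fold. Lrat, which esterifies retinol, was highest at 0.43 log2 (78.1 and 98.5).

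Other carriers and uptake genes held no measured member past 1.5-fold. Rbp2, a cytosolic retinol carrier, was highest at 0.58 log2 (729 and 1026), just short of that size and just past it (0.59) when scaled to the 75th percentile of probes above background, and Rbp7, of the same family, was lowest at -0.14. Fabp5, the epidermal fatty acid carrier that can also bind retinoic acid, read 189248 and 180288 (0.02 log2).

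Of 10 measured receptors outside Rara and Rarg, 2 were higher by 1.5-fold or more and 0 lower, beside 6.74% and 4.49% of all measured genes. Ppara, 1 of these and a fatty acid receptor that pairs with RXR, read 944 and 2046, a difference of 1.21 log2. With the mean of its 3 probes the difference was 0.92 log2. Rarb, the third retinoic acid receptor, read 553 and 502 (-0.05 log2), with 1 of its 3 probes of the other sign. The partners Rxra, Rxrb and Rxrg stood at 0.34, 0.26 and 0.04 log2, and Vdr, the vitamin D receptor, was lowest at -0.48. All 12 coregulators lay within 1.5-fold, with the coactivator Ncoa2 highest at 0.21.

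**Figure D3:**
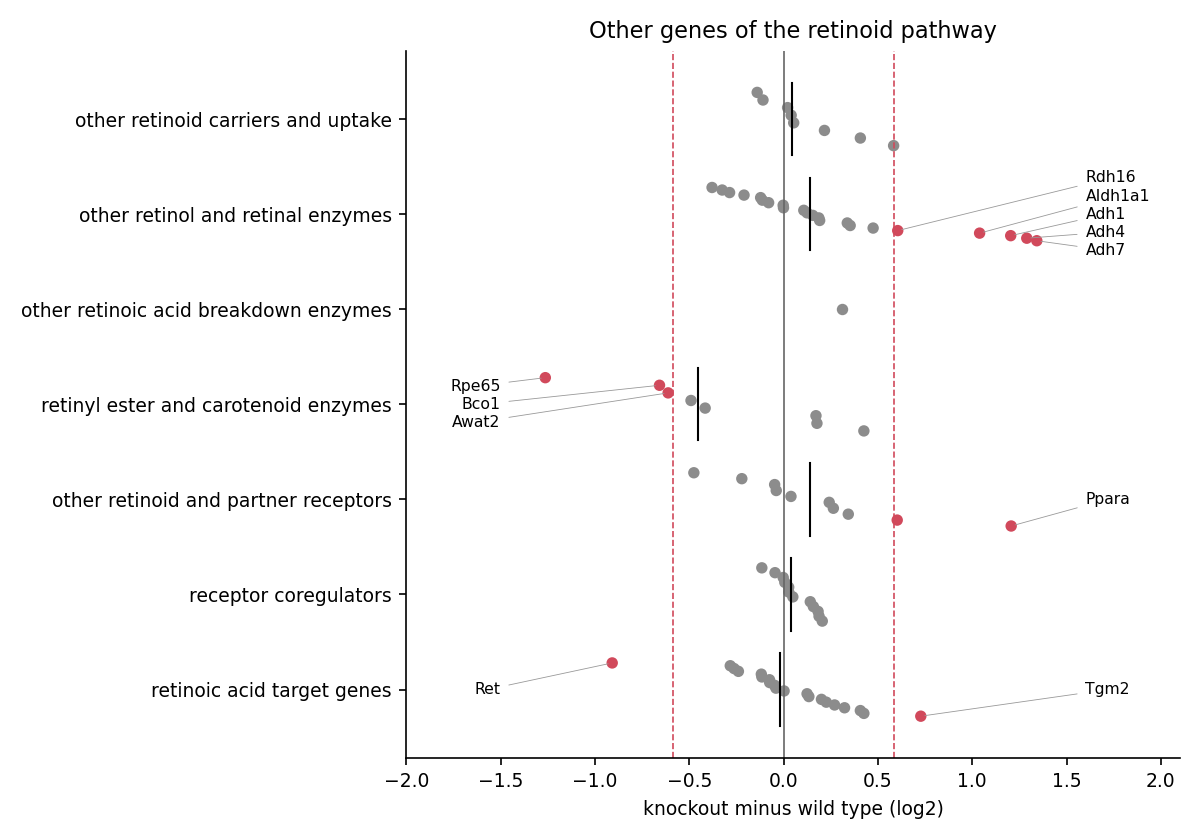
Difference between the pools (knockout minus wild type, log2, scaled signals) for each measured gene of 6 further retinoid lists and of a list of retinoic acid target genes; 1 point is 1 gene, red points are 1.5-fold or more apart (dashed lines), and black ticks are list medians. The dehydrogenases Adh7, Adh4, Adh1 and Aldh1a1 form a group above 1 log2, and all 12 coregulators lie inside the dashed lines.

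Genes known to respond to retinoic acid lay on both sides of 0. Of 20 measured on both arrays, 1 was higher by 1.5-fold or more and 1 lower, and the median was -0.02 log2. Over all measured genes 6.74% were higher and 4.49% lower, so these counts lay near the shares of all genes. Tgm2, the tissue transglutaminase, read 10573 in wild-type skin and 16431 in knockout skin (0.73 log2). Ret, a receptor tyrosine kinase of nerves and glia, read 440 and 220 (-0.91 log2). Rarb and Dhrs3, which are also on this list, stood at -0.05 and 0.12 as given above. Cyp26a1, a sensitive target that breaks down retinoic acid, was not well above background on either array (3.65 and 5.15), nor was Cyp26c1 (4.76 and 3.37). Cyp2s1, a further cytochrome P450 that can act on retinoic acid, read 6800 and 7921 (0.31 log2).

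Markers of the cell types in whole skin differed between the pools beside these genes. Over all measured genes, 6.74% were higher by 1.5-fold or more and 4.49% lower. In a summed signal the brightest probes weigh most, as Krt79 does among the sebaceous gland markers (131739 and 107600, -0.20 log2). A sum can thus hide larger differences of dimmer markers. All 16 hair matrix and follicle markers were below 0, 10 of them lower by 1.5-fold or more, and their summed scaled signal was 182 in wild-type skin and 118 in knockout skin. Melanocyte markers were below 0 in 8 of 8 (summed 39.0 and 33.1), of which 2 were lower by 1.5-fold or more. Sebaceous gland markers were below 0 in 9 of 10 (78.5 and 67.4), of which 3 were lower by 1.5-fold or more. Of 12 dermal papilla markers 8 were below 0 (20.6 and 18.3), 1 of them lower by 1.5-fold or more, with a list median of -0.19 log2. Endothelial markers were above 0 in 10 of 10, with 5 higher by 1.5-fold or more (8.19 and 11.7). Skeletal muscle markers were above 0 in 9 of 10, with 2 higher by 1.5-fold or more (350.4 and 448). Neutrophil markers had the highest median of these lists, 1.55 log2, with 6 of 8 higher by 1.5-fold or more and 1 lower. The calprotectin subunits S100a8 (1631 and 6160, 2.01 log2) and S100a9 (3357 and 16197, 2.36 log2), which keratinocytes can also make, and the collagenase Mmp8 (21.6 and 119, 2.56 log2) were among the higher ones, and the peptide gene Camp (1857 and 869) was the lower one. Their summed signal, 59.1 and 65.6, shows little of this because most of it came from the Csf3r probe (125040 and 113910, -0.04 log2). The list medians were 0.24 log2 for basal keratinocytes, 0.11 for suprabasal keratinocytes and 0.07 for dermal fibroblasts. Adipocyte markers were below 0 in 5 of 6 measured (73.5 and 62.9), with 3 lower by 1.5-fold or more. T cell markers were below 0 in 4 of 4 measured (1.82 and 1.68), with 2 lower by 1.5-fold or more. The part of these cell types in the differences of Stra6, Aldh1a2, Dhrs9 and the other retinoid genes was not tested.

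The bases around gene starts were searched for the half-sites that RAR and RXR bind. RefSeq promoters of GRCm38.p6 were used, a different build from that of the probes. There were 14 promoters of 300 bases for the retinoid genes, but no promoter for Crabp2 or Aldh1a3, so neither of these was searched. Of the 300 bases, 250 lie before the start and 50 after it. AGGTCA, read on both strands, was found in 3 of the 14, for Dhrs9, Rara and Rarg, and in 16.3% of all 32851 promoters. AGGTCA itself, the variant GGGTCA, the variant AGTTCA or the variant GGTTCA was found in 5 of the 14 and in 43.7% of all. In 2 of those 5 the only match lies after the start. AGGTCA lies 33 bases after 1 of several Rara starts, and AGTTCA 15 bases after 1 of several Stra6 starts. Pairs of these letters as the direct repeats DR1, DR2 or DR5 were found in 0 of the 14, and in 0.222%, 0.268% and 0.0974% of all promoters. The 250 bases before the start are shown for Dhrs9 and Aldh1a2, the members higher by 1.5-fold or more, and for the Rara start that holds the most half-sites. Capitals mark a half-site on either strand.
Dhrs9 chr2:69380212-69380461 (+ strand): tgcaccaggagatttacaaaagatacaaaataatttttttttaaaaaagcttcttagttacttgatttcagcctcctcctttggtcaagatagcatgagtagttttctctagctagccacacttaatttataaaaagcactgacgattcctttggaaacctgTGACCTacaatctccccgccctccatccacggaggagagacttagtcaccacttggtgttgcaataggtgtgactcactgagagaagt
Aldh1a2 chr9:71215539-71215788 (+ strand): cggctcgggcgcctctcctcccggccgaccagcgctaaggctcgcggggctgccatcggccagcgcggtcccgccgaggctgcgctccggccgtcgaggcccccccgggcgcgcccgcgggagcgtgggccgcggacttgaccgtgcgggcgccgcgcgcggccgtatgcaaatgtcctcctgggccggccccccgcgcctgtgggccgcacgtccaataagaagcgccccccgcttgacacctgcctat
Rara chr11:98939461-98939710 (+ strand): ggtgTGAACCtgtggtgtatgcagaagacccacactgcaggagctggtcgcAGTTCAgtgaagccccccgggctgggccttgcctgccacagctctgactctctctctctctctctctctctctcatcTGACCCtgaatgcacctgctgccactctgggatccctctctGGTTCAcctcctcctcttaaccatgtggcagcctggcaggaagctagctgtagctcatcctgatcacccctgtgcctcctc
The Dhrs9 window holds 1 half-site, on the - strand and starting 88 bases before the gene's start, that of Aldh1a2 holds 0, and that of Rara holds 4. A match of letters describes the window and is not a site of binding.

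**Figure D4:**
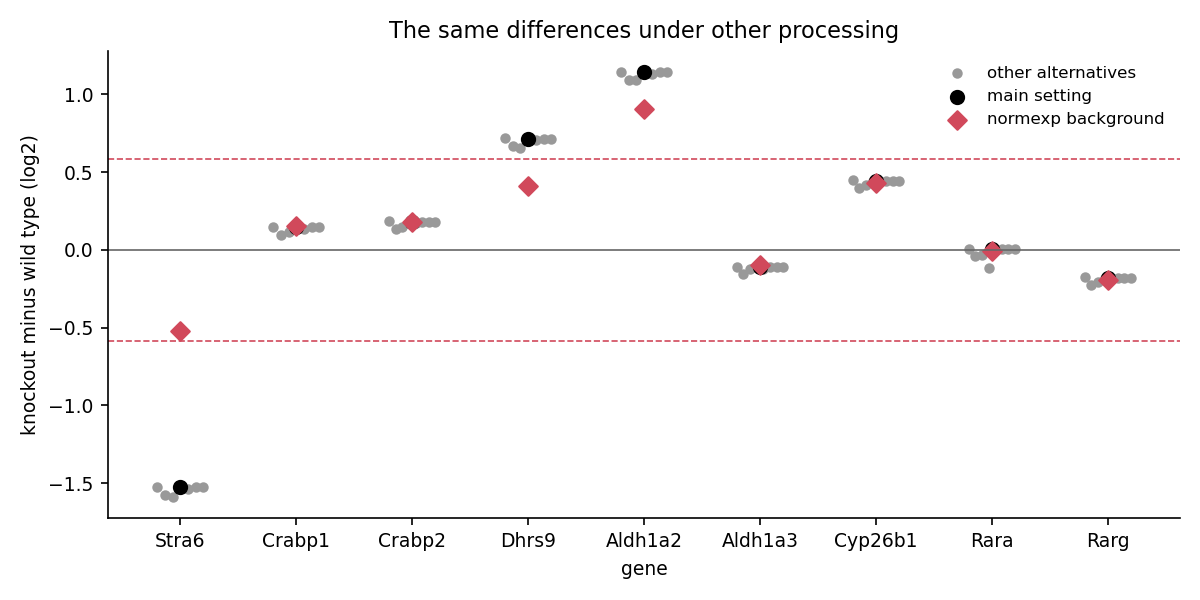
Difference of each retinoid gene (knockout minus wild type, log2) with the main processing (black), with normexp background correction (red diamonds) and with the other alternatives (grey); dashed lines mark 1.5-fold. Under normexp Stra6 moves from -1.53 to -0.52 and Dhrs9 from 0.72 to 0.41, both inside the lines, while Aldh1a2 stays outside at 0.90.

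Across the other settings that measured them, the members past 1.5-fold kept their direction. Aldh1a2 ranged from 0.90 to 1.14 log2 and stayed past 1.5-fold in 8 of 8 alternatives. Stra6 ranged from -1.59 to -0.52 and Dhrs9 from 0.41 to 0.72, with normexp the alternative that brought each under 1.5-fold, as the plot of differences by setting shows. Each of these genes rests on 1 spot of 1 probe. Only normexp and quantile normalization could alter such a gene apart from the others. The rest left its value as it was or shifted all genes alike, so most of the 8 alternatives are no separate check.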

How the data were processed

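The arrays measured RNA from the skin of newborn mice, 1 array per genotype and a pool of 5 animals on each, labelled with Cy3 in 1 colour. The authors read the spots with Agilent Feature Extraction 11.5.1.1, per the submitters' processing notes. The deposited scanner files give a linear intensity per spot, background-subtracted and spatially detrended, with the software's error for it, per the file headers, and probe positions on mm9. The deposited value table holds a ratio per spot, which equalled the processed intensity divided by 2406 and 2273 for the wild-type and the knockout array.

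Control spots and 234 outlier spots were left out. Log2 intensity was averaged over the spots of a probe, and the 75th percentile over the 39422 probes of the array was subtracted. Probes were named through their accession (28326), symbol (2204) or synonym (174) in a RefSeq table of GRCm38.p6 used for names alone, otherwise by the file (1767). 6951 had no gene name. A gene is its brightest probe well above background on both arrays. For a probe that passed on 1 array only, the bright value was divided by the dim array's own value or its lowest signal well above background, whichever was larger. The median scanner error of a difference was 0.20 log2. Over 378 probes with repeated spots, the median SD of the difference between spots of a probe was 0.04 log2, which covers neither animals nor pools. With 1 array per group there was no test, and the number of arrays limits the precision. Steps ran in Python 3.11.15 and R 4.3.3, with limma 3.58.1 for normexp. The scalings and the call at 1.5-fold were tested on simulated data, with noise that was the same at all signals. Normexp and the removal of outlier spots were not part of that test. Columns of unknown origin numbered 0.

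Genes named are the 9 members, every gene of the other retinoid lists 1.5-fold or more apart, otherwise the highest and lowest of a list, and the checks of the labels. Some genes that this rule would name are not reported here. Rdh10, Dhrs3, Aldh1a7, Fabp5, Rarb, the RXR genes, Cyp26a1, Cyp26c1, Krt14, Krt10, Col1a1 and the neutrophil markers were named after their values were seen. The members and lists were chosen with earlier results of these data known. Alternatives covered scaling, quantile normalization, normexp, the mean of probes, the value table, filters on signal, outlier spots and the size of a call.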

Additional observations from a re-analysis of the deposited data

How the results depend on the processing

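Of the alternatives run, normexp background correction moved the most values. With it 1 member was higher by 1.5-fold or more and 0 lower, Aldh1a2 stood at 0.90 log2, Dhrs9 at 0.41 and Stra6 at -0.52. Of the other retinoid genes 4 were then higher and 0 lower, and over all measured genes 4.40% were higher and 2.18% lower. Normexp adds an offset to every spot, so low signals are drawn together by its construction. It also starts from the spot means and local backgrounds, not from the spatially detrended signals of the main processing. How much of each change came from the offset was not tested. Among genes brighter than the median alone, 5 of the 9 members remained, 0 of them higher and 0 lower. There 3 other retinoid genes were higher and 0 lower, 0 target genes were lower, and 4.12% and 2.43% of genes were higher and lower. Without the background filter, 11 other retinoid genes and 4 target genes were higher, beside 9.16% of 24288 genes. At a size of 2-fold, 1 member was higher and 1 lower, 5 other retinoid genes were higher and 1 lower, and 0 target genes were higher and 0 lower, beside 2.23% and 1.44% of all genes. Under the other scalings, the mean of probes, the value table and kept outlier spots, 5 to 8 other retinoid genes were higher and 3 lower. No direction of a difference past 1.5-fold reversed in any alternative. No paired analysis was possible because each group has 1 array. The dim probes of Stra6 and Dhrs9 lie within an order of magnitude of the lowest signals well above background, which limits how firmly their sizes can be stated.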

Other observations

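Stra6l, of the other carriers, and Krt4, of the target genes, were well above background on 1 array alone. The counts of the report leave them out. They enter only where the background filter is dropped. Stra6l, which encodes a second receptor for the plasma retinol carrier, read 16.5 in wild-type skin and 28.6 in knockout skin. It passed the mark in knockout skin alone. The ratio of its scaled readings was 1.85-fold, which is no lower bound, since the wild-type reading itself was the divisor. Its direction is the opposite of that of Stra6. Krt4, a keratin of mucosal epithelia that retinoic acid can induce in skin, read 15.9 and 24.3 and also passed in knockout skin alone. Its ratio of scaled readings was 1.63-fold, again no lower bound. Ttr and Lrp2, which serve the transport and uptake of the plasma carrier in other organs, were not well above background on either array.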
